A study of Mus musculus with 6 samples.

Results

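The 33 genes described here carry fatty acids from the capillary into the mitochondria of the heart muscle cell, oxidise them, mostly there, or store them as triglyceride. They were chosen by name, as the rows of a table of normalised read counts whose gene name was on a fixed list of 33, out of 54232 rows in all, and every name on the list was found. The table holds nuclear RNA of cardiomyocyte nuclei from frozen left ventricles of adult male mice, in 3 libraries from wild-type (WT) and 3 from UtyGT animals, each from 150000 nuclei sorted with an antibody against PCM1, a centrosomal protein found around cardiomyocyte nuclei. UtyGT mice carry the gene trap UtyGt(XS0378)Wtsi in the fourth intron of the Y-linked gene Uty, where a splice acceptor and a stop codon interrupt the transcript. The trap comes from 1 line of 129P2/OlaHsd embryonic stem cells, so the Y chromosome of both groups is of 129P2/OlaHsd origin on a C57BL/6J background: the WT controls (C57BL/6.Y<129P2>) descend from 129P2/OlaHsd males crossed to C57BL/6J over as many generations. The libraries of each group are numbered 11, 15 and 31. The labels give neither the animals behind a library nor the day behind a number, so that p-values speak only of how far the libraries vary, and that variation may be technical.

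The working heart draws most of its energy from fatty acids. Lipases free them from lipoproteins at the capillary wall, carrier proteins bring them across the cell membrane and through the cytosol, and acyl-CoA synthetases trap them as acyl-CoA. Long chains then cross the mitochondrial membranes as carnitine esters, a step that malonyl-CoA inhibits, and are shortened in rounds of dehydrogenation, hydration, dehydrogenation and thiolysis, while the electrons pass through a flavoprotein to the respiratory chain. What is not burned is kept as triglyceride in lipid droplets.

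The libraries held between 18204752 and 23252887 reads assigned to genes, of which the 33 genes took 0.739%, 0.941% and 0.752% in WT 11, 15 and 31 and 0.804%, 0.890% and 0.846% in UtyGT 11, 15 and 31. Uty itself, the trapped gene, had a mean normalised count of 1286 in WT and 18.7 in UtyGT. The sum of 9 ventricular cardiomyocyte markers lay between 1968770 and 2395670 normalised counts, so that cardiomyocyte RNA was abundant, as labelled. This sum makes no allowance for length, and Ttn, with 116.8 kilobases of exon, weighs far more in it than short genes such as Myl2. The sum does not tell ventricle from atrium, and atrial markers are given below. Of 9 adipocyte markers only Fabp4, which endothelial cells also express, passed the filter of a mean normalised count of at least 10. Adipoq, the defining adipocyte hormone, was at 0 in 5 of 6 libraries and Plin1 lay between 0.939 and 4.69. Both number 15 libraries stood apart: 10 leukocyte markers summed to 1991 in WT 15 and 833 in UtyGT 15, against 9957 to 24939 in the other 4, and no leukocyte marker was at 0 in any library. RNA from fewer cells of a type and less RNA per cell cannot be told apart in such libraries.

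All 33 genes passed the filter, on 13 chromosomes. Levels of different genes are compared per kilobase (kb) of annotated exon, since longer transcripts collect more reads. Every base in an exon of any annotated transcript enters this length, so the order below also depends on the annotation. Echs1, for example, has 8286 exon bases in 4 blocks of a gene of 10767 bases. Per kb, the carriers at the entry of the route stood highest. Fabp3, the heart fatty acid-binding protein, averaged 12958 normalised counts per kb (range over the 6 libraries 10331 to 15380). Lpl, lipoprotein lipase, followed with 6248 per kb (4385 to 7920) and Cd36, the fatty acid translocase, with 2582 per kb (2051 to 2965), and the ranges of these 3 genes did not overlap. Below them the ranges ran into each other, from Acadl, the long-chain acyl-CoA dehydrogenase, at 1940 per kb (1668 to 2293) down to Dgat1 at 127, Cpt1b at 117 and Lipe at 109 per kb.

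**Figure D1:**
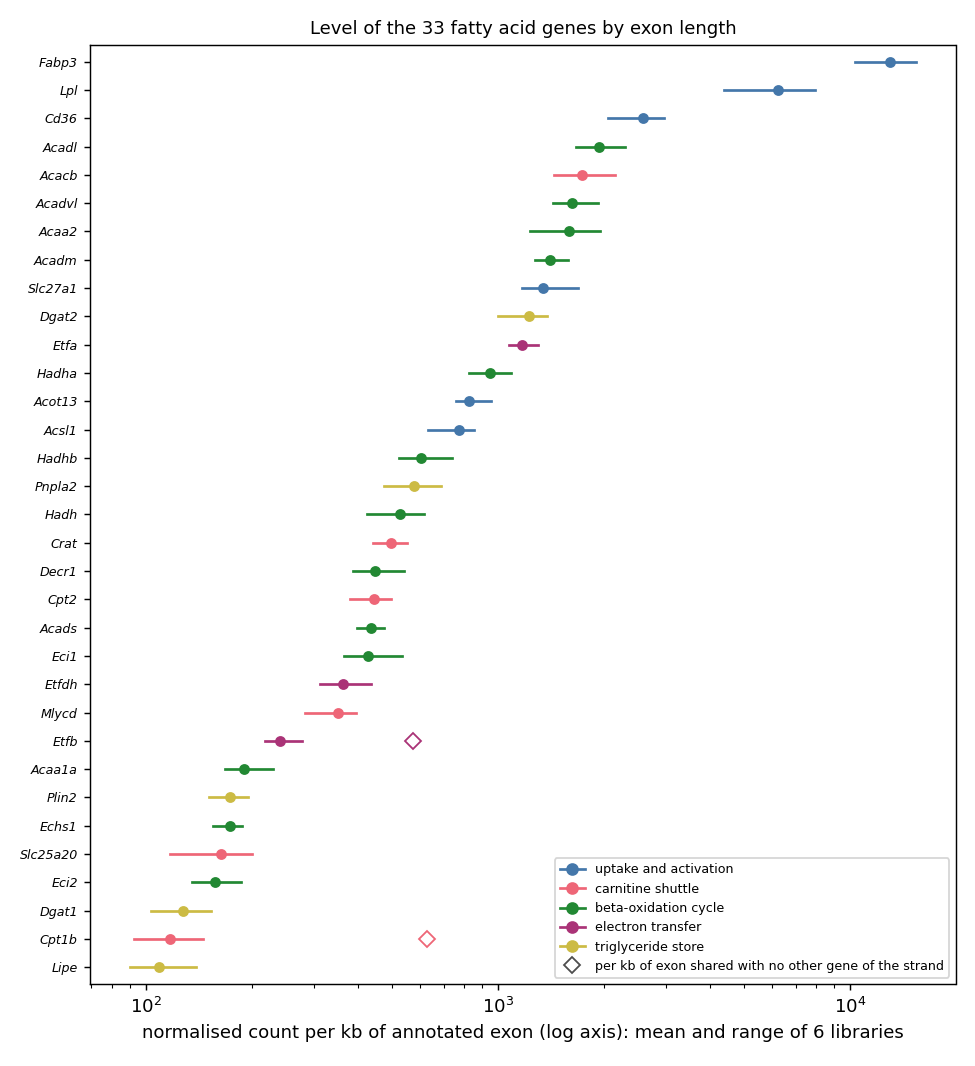
Level of each of the 33 genes in normalised counts per kb of annotated exon on a log axis, ordered by the mean (point) with the range of the 6 libraries (line), coloured by step. Open diamonds give Cpt1b and Etfb per kb of exon that no other gene of the same strand shares, at 629 and 574, and Fabp3, Lpl and Cd36 stand at the top with ranges that do not overlap each other.

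The low places of Cpt1b and Etfb may rest on exons that they share with other annotated genes. Cpt1b, the muscle carnitine palmitoyltransferase of the outer mitochondrial membrane (GRCm38, chromosome 15, 89416405 to 89425863, minus strand), shares 81.4% of its exon bases with Gm44502, annotated on the same strand, and Gm44502 had 0 reads in all 6 libraries. Etfb, the beta subunit of electron transfer flavoprotein, shares 53.0% of its exon bases with Gm45233, also on its own strand and also at 0 reads in all 6. How the counting treated reads that fall in more than 1 gene is not given in the sources used here. Per kb of exon that no gene of the same strand shares, Cpt1b came to 629 (497 to 778) and Etfb to 574 (522 to 664). The order of Cpt1b and Cpt1a, the carnitine palmitoyltransferase best known from liver, turned with that choice: the ratio of Cpt1b to Cpt1a per kb was 0.320 to 0.418 over all exons and 1.72 to 2.24 over the unshared exons of Cpt1b. Of the 33 genes, 12 share some exon with another gene. For Acadvl, the very-long-chain acyl-CoA dehydrogenase, it is 42.9% of the exon bases, with Dvl2 on the opposite strand, and whether counting used the strand is not given either.

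The promoters show how some of these genes are laid out. RefSeq windows of 300 bases (GRCm38.p6; 250 bases before to 50 after a start) were found for 25 of the 33 genes, and not for Cpt1b, Crat, Acaa2, Decr1, Lpl, Acot13, Dgat1 and Dgat2. Hadha and Hadhb encode the alpha and beta subunits of the mitochondrial trifunctional protein, which carries out the last steps of each round on long chains. Their annotated genes lie head to head on chromosome 5 with 85 bases between them, and their windows have 228 bases in common. Both windows are printed because they overlap. Whether the shared bases bear on the levels of the pair was not tested. Capitals mark GGGCGG, the GC box, read on either strand, at chr5:30154931-30155230 (minus strand) for Hadha and chr5:30155003-30155302 (plus strand) for Hadhb:
Hadha: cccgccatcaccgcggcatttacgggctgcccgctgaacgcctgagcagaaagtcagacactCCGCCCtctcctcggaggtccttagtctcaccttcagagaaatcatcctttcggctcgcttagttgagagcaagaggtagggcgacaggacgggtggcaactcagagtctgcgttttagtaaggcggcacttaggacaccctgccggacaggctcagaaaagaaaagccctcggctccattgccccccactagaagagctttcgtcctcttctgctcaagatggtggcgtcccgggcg
Hadhb: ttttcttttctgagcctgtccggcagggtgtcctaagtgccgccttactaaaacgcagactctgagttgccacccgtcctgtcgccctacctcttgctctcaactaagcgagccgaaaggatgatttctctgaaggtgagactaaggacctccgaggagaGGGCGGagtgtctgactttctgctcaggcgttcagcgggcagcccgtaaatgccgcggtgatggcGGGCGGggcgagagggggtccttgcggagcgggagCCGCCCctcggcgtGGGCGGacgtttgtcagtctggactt
The Hadha window held 1 match and the Hadhb window 4. The Hadha match lies in the bases in common and is the same site as the first match of the Hadhb window. The 25 genes had 29 windows, as some have more than 1. GGGCGG or its reverse complement was present for 19 of the 25 genes, in 69% of their windows and in 35.7% of all 32851 windows. The median G and C content was 60.7% in the windows of these genes and 52.7% in all windows. CCAAT was found for 12 of the 25 genes (44.8% of their windows, 37.4% of all windows). TATAAA was found for 1, Acacb (3.45% of their windows, 13.6% of all windows).

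Peroxisome proliferator-activated receptors (PPARs) and oestrogen-related receptors, the nuclear receptors known to drive fatty acid oxidation genes in heart, bind repeats or extensions of AGGTCA. These 6 letters, on either strand, stood in the windows of Acacb, Acadm, Acadvl, Cd36, Echs1 and Plin2, thus 6 of 25 genes. Per window this was 20.7% of their 29 windows, against 16.3% of all windows. The direct repeat of these letters with 1 base between was in none of the 25 (0.0396% of all windows) and TCAAGGTCA in none (0.423%). Acadm, the medium-chain acyl-CoA dehydrogenase, and Cd36 are shown as a gene of the cycle and a gene of uptake that hold the 6 letters, in capitals, at chr3:153944594-153944893 (minus strand) and chr5:17835847-17836146 (minus strand):
Acadm: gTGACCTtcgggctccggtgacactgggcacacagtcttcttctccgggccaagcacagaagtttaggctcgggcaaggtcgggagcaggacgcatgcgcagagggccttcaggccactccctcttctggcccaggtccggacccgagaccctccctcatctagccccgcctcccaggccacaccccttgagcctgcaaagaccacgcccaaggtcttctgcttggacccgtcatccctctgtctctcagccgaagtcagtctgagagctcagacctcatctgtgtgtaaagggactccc
Cd36: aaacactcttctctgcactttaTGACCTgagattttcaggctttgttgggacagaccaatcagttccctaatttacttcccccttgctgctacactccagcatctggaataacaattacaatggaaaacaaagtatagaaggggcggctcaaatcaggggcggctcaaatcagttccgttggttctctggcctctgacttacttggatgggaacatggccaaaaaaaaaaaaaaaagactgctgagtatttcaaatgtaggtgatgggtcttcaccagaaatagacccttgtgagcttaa
Each held a single match. The annotated Cd36 gene spans 17781690 to 17888801 on the minus strand. Its window thus lies at a start inside the gene, and no window was found at the outermost start.

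The comparison of UtyGT with WT asked whether the trap in Uty goes with a change in nuclear transcripts of the route. None of the 33 genes passed at an adjusted p of 0.05 (limma with Benjamini-Hochberg adjustment over 16202 genes), where 0.00617% of all genes tested, the single gene Uty, did. With the library number as a block, 2 genes passed in all and again 0 of the 33. At an unadjusted p below 0.05 stood 1 of the 33, Dgat2, against 1.20% of all genes tested in either direction and 0.636% in that of Dgat2, and DESeq2 and edgeR each gave 1 at that level and 0 after adjustment. That count was 7 without WT 15, where the share of all genes rose to 3.80% as well, and 0 without WT 11 (1.07%), WT 31 (1.73%) or UtyGT 15 (0.701%). The 95% intervals of 32 of the 33 genes included 0, and those of 32, all but Lpl, lay within a 1.5-fold change in either direction.

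Most estimates were nonetheless small and above 0. The log2 fold change (UtyGT over WT) was above 0 for 28 of the 33 genes, against 48.6% of all genes tested, with a median of 0.08 (all genes −0.01) and a range from −0.07 for Plin2 to 0.27 for Dgat2. Which library was left out set this count: it fell to 16 of 33 without WT 11. By pairs of equal number, a match by label, the 33 genes had medians of 0.12 (11), −0.12 (15) and 0.13 (31). Many of the 33 genes were high and low in the same libraries, so the count is not one of 33 independent values.

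**Figure D2:**
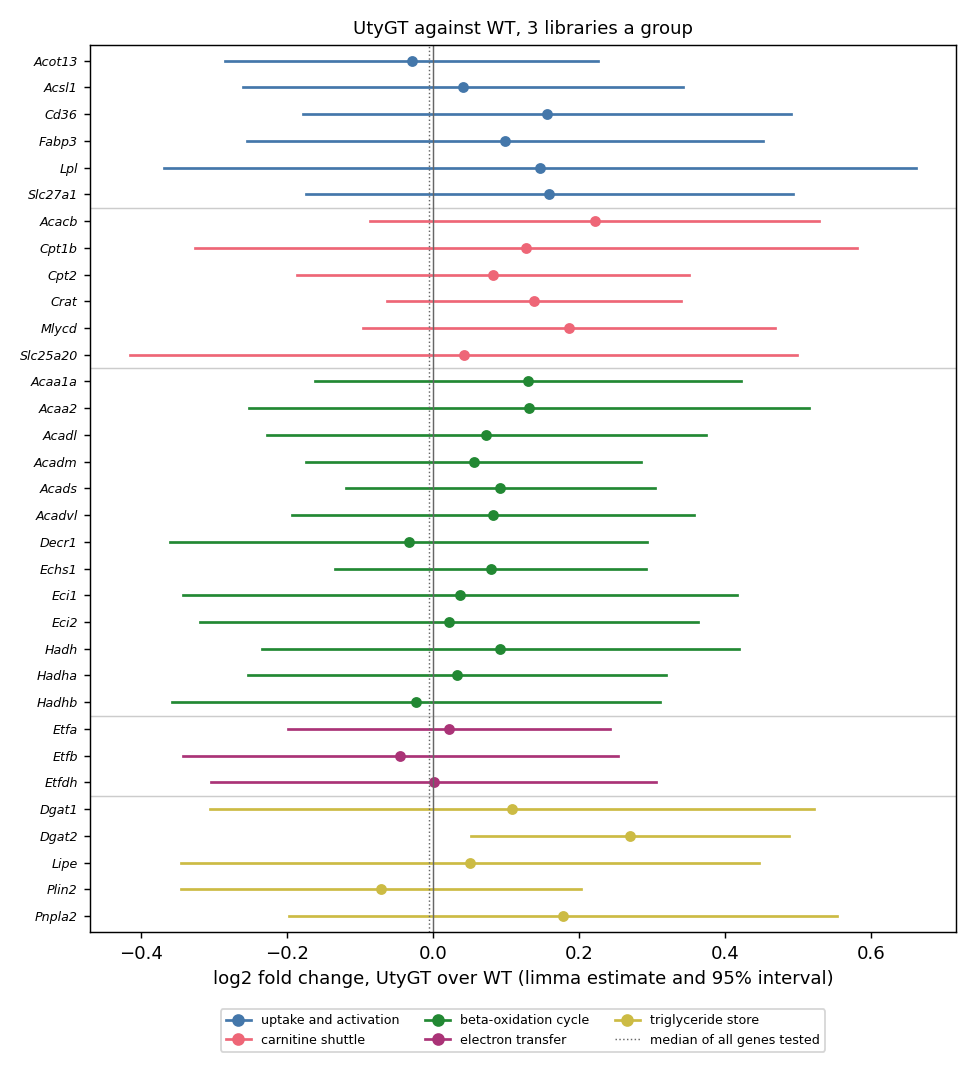
Log2 fold change of UtyGT over WT for each gene, estimated by limma with its 95% interval, grouped and coloured by step; the dotted line is the median of all genes tested (−0.01). The interval of Dgat2 (0.05 to 0.49) lies above 0 and the other 32 intervals include 0.

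Along the route, the median log2 fold change was 0.12 for the 6 genes of uptake and activation, 0.13 for the 6 of the carnitine shuttle, 0.07 for the 13 of the cycle, 0.00 for the 3 of electron transfer and 0.11 for the 5 of the triglyceride store. The 6 carnitine shuttle genes were all above 0, between 0.04 for Slc25a20, the carnitine-acylcarnitine translocase, and 0.22 for Acacb. Of the cycle, 11 of 13 genes were above 0 and none beyond 0.13. In none of the 5 steps did a gene pass the test.

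At the entry of the route, Lpl (chromosome 8, 68880491 to 68907448), which frees fatty acids from lipoproteins, had the highest normalised count of the 33 genes. It stood at 60138, 82989 and 45947 in WT 11, 15 and 31 and at 61140, 69993 and 72607 in UtyGT 11, 15 and 31. WT 15 was the highest and WT 31 the lowest of the 6, so that the UtyGT values lay inside the range of WT. The log2 fold change was 0.15 (SE 0.22), and its interval (−0.37 to 0.66) was the widest on the upper side.

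Cd36 and Fabp3, which carry fatty acids across the membrane and through the cytosol, followed Lpl from library to library. Cd36 lay between 7364 and 10646 and Fabp3 between 8502 and 12658 normalised counts, both lowest in WT 31 and highest in WT 15. Their log2 fold changes were 0.16 (SE 0.14) and 0.10 (SE 0.15). In the pair numbered 31 alone, Lpl was higher in UtyGT by 0.66, Cd36 by 0.49 and Fabp3 by 0.44 on the log2 scale, while in the pair numbered 15 all 3 were below WT. Endothelial markers, 10 in number and none at 0 in any library, summed to 837 to 1898 in WT and 1002 to 1099 in UtyGT and were lowest in WT 31 (837), where Lpl, Cd36 and Fabp3 were also lowest, and highest in WT 11 (1898), where none of the 3 was at an extreme. In the pair numbered 31 the endothelial markers had a median of 0.48. Their part in the values of these 3 genes was not tested.

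Slc27a1 (chromosome 8, 71568882 to 71587302), a fatty acid transport protein of the membrane, ran differently. It had 6950, 6820 and 8313 normalised counts in WT 11, 15 and 31 and 7902, 9811 and 7074 in UtyGT 11, 15 and 31. WT 15, the highest library for most of the route, was here the lowest, and UtyGT 15 the highest. The log2 fold change was 0.16 (SE 0.14, unadjusted p = 0.296 by limma). Acsl1, the long-chain acyl-CoA synthetase that traps fatty acids in the cell, and Acot13, a thioesterase that splits acyl-CoA, had log2 fold changes of 0.04 (SE 0.13) and −0.03 (SE 0.11).

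In the carnitine shuttle, Acacb (chromosome 5, 114146535 to 114250761), acetyl-CoA carboxylase 2, makes the malonyl-CoA that holds back entry into mitochondria. It had 13843, 15728 and 16346 normalised counts in WT 11, 15 and 31 and 17872, 20625 and 15285 in UtyGT 11, 15 and 31. UtyGT 31 lay below both WT 15 and WT 31, so the groups overlapped. Its log2 fold change was 0.22 (SE 0.13, unadjusted p = 0.132). Acacb was 55.7 to 79.8 times the level of Acaca, the other acetyl-CoA carboxylase, per kb.

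Mlycd (chromosome 8, 119394878 to 119411102), malonyl-CoA decarboxylase, removes the same inhibitor. Its counts were 840, 1131 and 968 in WT 11, 15 and 31 and 1096, 1170 and 1055 in UtyGT 11, 15 and 31. Each UtyGT library stood above the WT library of its number, but WT 15 lay above UtyGT 11 and 31. Its log2 fold change was 0.19 (SE 0.12, unadjusted p = 0.164). Per kb, the ratio of Acacb to Mlycd was 4.86 ± 0.497 in WT and 4.97 ± 0.485 in UtyGT (SD, n = 3), a difference smaller than the spread between libraries.

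Crat (chromosome 2, 30400471 to 30415813), carnitine acetyltransferase, exchanges acetyl groups between CoA and carnitine. It had 2372, 2774 and 2523 normalised counts in WT 11, 15 and 31 and 2683, 2980 and 2768 in UtyGT 11, 15 and 31. UtyGT was higher in each of the 3 pairs, although WT 15 exceeded UtyGT 11 and UtyGT 31. Across the 3 libraries a group this came to a log2 fold change of 0.14 (SE 0.09, unadjusted p = 0.149). Together with Mlycd and Dgat2, Crat made up the 3 of 33 genes that were higher in every pair, against 8.51% of all genes tested. None was lower in every pair, where 8.92% of all genes were.

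Cpt1b and Cpt2, the carnitine palmitoyltransferases of the outer and the inner membrane, had 379 ± 88.5 and 1036 ± 139 normalised counts in WT and 411 ± 67.4 and 1092 ± 66.1 in UtyGT (SD, n = 3). Their log2 fold changes were 0.13 (SE 0.19) and 0.08 (SE 0.11). Slc25a20 (chromosome 9, 108662088 to 108684641), which carries acylcarnitines through the inner membrane, had 567, 968 and 837 in WT 11, 15 and 31 and 745, 857 and 786 in UtyGT 11, 15 and 31. All 3 UtyGT values fell inside the WT range.

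In the oxidation cycle, Hadha (chromosome 5, 30118304 to 30155162) had the highest count. It stood at 7221, 9529 and 7843 in WT 11, 15 and 31 and at 7602, 8777 and 8658 in UtyGT 11, 15 and 31, with a log2 fold change of 0.03 (SE 0.12). Hadhb (chromosome 5, 30155248 to 30184593) had 3446, 4887 and 3808 in WT and 3565, 4275 and 4003 in UtyGT, in the same order of numbers, with a log2 fold change of −0.02 (SE 0.14). Both subunit genes were lowest in WT 11 and highest in WT 15. Their ratio per kb was 1.537 ± 0.0573 in WT and 1.598 ± 0.0428 in UtyGT (SD, n = 3). It stayed between 1.47 and 1.63, while Hadha ran from 7221 to 9529 and Hadhb from 3446 to 4887 normalised counts. Decr1 on chromosome 4 and Etfdh on chromosome 3 were also lowest in WT 11 and highest in WT 15, so that order was not particular to this pair. The ratio of Cpt1b to Dgat1 (below) was narrow as well.

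The acyl-CoA dehydrogenases open each round, with Acadvl, Acadl, Acadm and Acads taking chains from very long to short. Their log2 fold changes were 0.08 (SE 0.12), 0.07 (SE 0.13), 0.06 (SE 0.10) and 0.09 (SE 0.09). The later enzymes lay in the same range: Echs1, the short-chain enoyl-CoA hydratase, at 0.08 (SE 0.09), Hadh, the hydroxyacyl-CoA dehydrogenase, at 0.09 (SE 0.14), and Acaa2, the mitochondrial thiolase, at 0.13 (SE 0.16). Acaa1a, the thiolase of peroxisomes, which is counted here with the cycle, was at 0.13 (SE 0.12). The electron carriers Etfa, Etfb and Etfdh were at 0.02 (SE 0.09), −0.04 (SE 0.13) and 0.00 (SE 0.13).

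Etfdh (chromosome 3, 79603788 to 79629500), which hands the electrons on to ubiquinone, had the highest count of the 3. Its values were 2346, 3280 and 2599 in WT 11, 15 and 31 and 2568, 2853 and 2734 in UtyGT 11, 15 and 31. WT 11 was the lowest and WT 15 the highest, with the 3 UtyGT libraries between them. Per kb, Etfdh stood at 1.496 ± 0.149 times Etfb in WT and 1.539 ± 0.0162 in UtyGT (SD, n = 3), over all annotated exons of Etfb. Over the exon bases of Etfb that no gene of its strand shares, the ratio turned to 0.625 ± 0.0622 in WT and 0.643 ± 0.00678 in UtyGT.

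Dgat2 (ENSMUSG00000030747, chromosome 7, 99153658 to 99182719, minus strand), a diacylglycerol acyltransferase that makes triglyceride, was the only 1 of the 33 genes whose groups did not overlap, where 3.10% of all genes tested lay wholly higher in UtyGT and 2.32% wholly lower. It had 3077, 3802 and 3389 normalised counts in WT 11, 15 and 31 and 3998, 4252 and 4084 in UtyGT 11, 15 and 31. The lowest UtyGT library stood just above the highest WT library. The log2 fold change was 0.27 (SE 0.09, 95% interval 0.05 to 0.49), with an unadjusted p of 0.0224 and an adjusted p of 1.00 by limma, and UtyGT was higher in 3 of 3 pairs. With the block the unadjusted p was 0.0295. The count of genes without overlap grew to 17 of 33, all higher in UtyGT, when WT 15 was left out (11.7% of all genes tested), to 4 without WT 31 (7.18%), and to 2 without UtyGT 11 (7.04%) or UtyGT 31 (7.21%).

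Dgat1, the other diacylglycerol acyltransferase, had 376 ± 79.0 normalised counts in WT and 402 ± 56.7 in UtyGT (SD, n = 3; log2 fold change 0.11, SE 0.17). Per kb, Dgat2 was 7.21 to 11.9 times Dgat1. Of the lipases that release stored fatty acids, Pnpla2, adipose triglyceride lipase, was at 0.18 (SE 0.16) and Lipe, hormone-sensitive lipase, at 0.05 (SE 0.17). Plin2, a coat protein of the lipid droplet, was at −0.07 (SE 0.12).

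Atrial cardiomyocyte markers tended to be lower in UtyGT in these ventricular nuclei, though not in the pair numbered 31. By pairs of equal number their medians were −2.15 (11), −2.54 (15) and 0.00 (31). Of 8, all were lower in UtyGT (median −1.53 on the log2 scale), 6 at an unadjusted p below 0.05 and none after adjustment, with sums of 2236 to 4656 in WT and 1851 to 2319 in UtyGT, and Bmp10 was at 0 in WT 11, UtyGT 11 and UtyGT 15. The highest sum was in WT 15, the library that was also highest for most of the fatty acid genes. Leukocyte markers, 10 of 10 lower in UtyGT with none passing, had a median of −0.83, and all 10 fibroblast markers were lower too, with sums of 1740 to 8430 in WT and 1817 to 5747 in UtyGT. By pairs the medians were −1.40 (11), −1.22 (15) and 0.07 (31) for leukocyte markers. For fibroblast markers they were −1.98 (11), 0.03 (15) and 0.60 (31). Their part in the values of the 33 genes was not tested.

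The libraries of number 15 tended to hold more RNA of the route than those of 11 and 31, without any single gene passing. In the limma F test of the numbers, with the group as a covariate, 0 of the 33 genes passed, where 4.79% of all genes tested did (776 genes, 771 of them lower and 5 higher in number 15). The 776 became 369 without WT 15, 462 without UtyGT 15 and 1244 without UtyGT 11. At an unadjusted p below 0.05 stood 3 of the 33, Eci1, Eci2 and Decr1, against 9.57% of all genes, so that neither count exceeded the background. Each of the 6 libraries left out in turn, and DESeq2 and edgeR, gave 0 of the 33 as well.

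Averaged over both groups, the direction was nearly uniform all the same. Number 15 was higher for 32 of the 33 genes, against 53.2% of all genes tested, with a median log2 difference of 0.22 (all genes 0.02) and a range from −0.00 for Dgat1 to 0.37 for Eci1. The median was 0.30 in WT and 0.12 in UtyGT. Number 15 lay below the mean of 11 and 31 for Cpt1b, Dgat1 and Slc27a1 in WT. In UtyGT it did so for Acads, Acaa2, Acot13, Echs1 and Etfa. Number 15 was the highest library of its group in both groups for 18 of the 33 genes, against 16.1% of all genes. WT 15 was the highest of all 6 libraries for 22 of the 33 (21.6% of all genes tested) and WT 11 the lowest for 20 (16.6%).

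**Figure D3:**
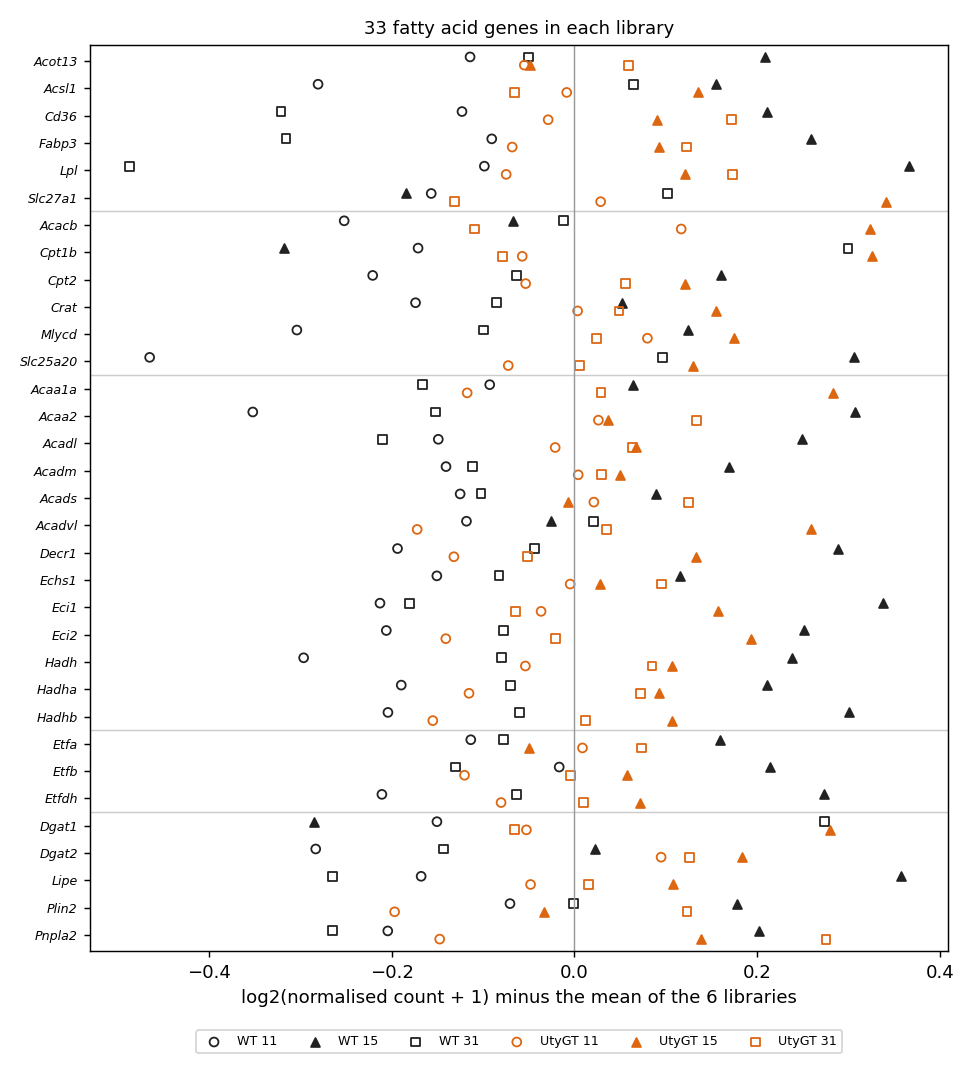
Each gene in each library, as log2(normalised count + 1) minus the mean of the 6 libraries, with WT in black and UtyGT in orange, numbers 11, 15 and 31 as circles, filled triangles and squares, and lines between the 5 steps. WT 15 lies farthest to the right for 22 genes and WT 11 farthest to the left for 20, and Cpt1b, Dgat1 and Slc27a1 have WT 15 at the far left.

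The 5 genes with the smallest p in that test were Eci2, Decr1, Eci1, Slc25a20 and Hadhb, none of which passed. Eci2 (chromosome 13, 34977748 to 35027096), an enoyl-CoA isomerase that moves double bonds of unsaturated chains, had 750, 1030 and 820 normalised counts in WT 11, 15 and 31 and 785, 989 and 853 in UtyGT 11, 15 and 31. Number 15 was the highest and number 11 the lowest in both groups, by a log2 difference of 15 over 11 and 31 of 0.33 (limma F test unadjusted p = 0.0405, adjusted p = 0.457). The other isomerase, Eci1 (chromosome 17, 24426641 to 24439348), had 776, 1137 and 794 in WT and 877, 1003 and 860 in UtyGT. Here too number 15 was highest in both groups, by 0.37 (limma F test unadjusted p = 0.0479, adjusted p = 0.507).

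Decr1 (chromosome 4, 15917240 to 15945507), the dienoyl-CoA reductase that prepares polyunsaturated chains for the cycle, had 1506, 2103 and 1670 normalised counts in WT 11, 15 and 31 and 1572, 1888 and 1662 in UtyGT 11, 15 and 31. The order of the numbers was that of Eci2, with a log2 difference of 0.32 (limma F test unadjusted p = 0.0446, adjusted p = 0.486). Slc25a20 followed with 0.33 (limma F test unadjusted p = 0.0503) and Hadhb with 0.31 (unadjusted p = 0.0509), from the counts given above.

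A few genes had another profile. Cpt1b had 346, 312 and 480 normalised counts in WT 11, 15 and 31 and 375, 488 and 369 in UtyGT 11, 15 and 31, so that 15 was the lowest in WT and the highest in UtyGT. Dgat1, on the same chromosome, had 347, 316 and 466 in WT and 371, 468 and 368 in UtyGT, almost the same numbers, and the ratio of Cpt1b to Dgat1 per kb stayed between 0.896 and 0.946 over all exons of Cpt1b and between 4.81 and 5.08 over its unshared exons. Slc27a1 shared the profile, and Acacb and Acadvl were also highest in WT 31 among WT and in UtyGT 15 among UtyGT. These 5 genes were the only ones of the 33 for which WT 15 was not the highest WT library.

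**Figure D4:**
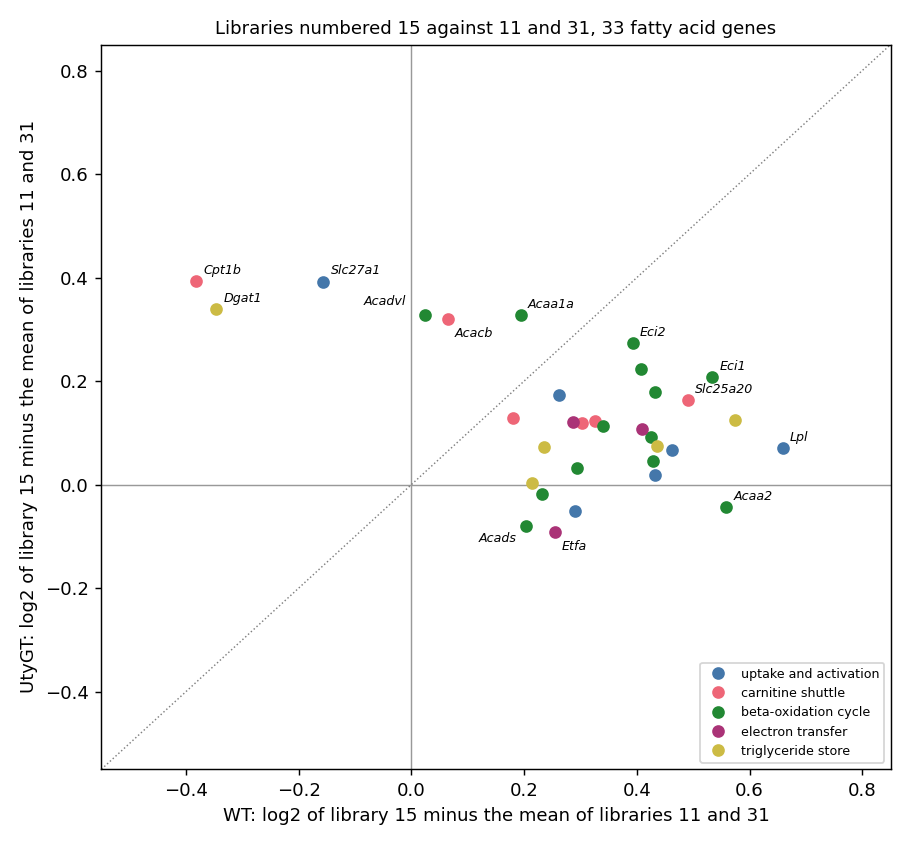
Log2 of the number 15 library minus the mean of numbers 11 and 31, in WT (horizontal) and in UtyGT (vertical), for the 33 genes coloured by step, with the dotted line where both are equal. Most genes lie right of 0 and below the line, with medians of 0.30 in WT and 0.12 in UtyGT, while Cpt1b, Dgat1 and Slc27a1 lie left of 0 and above it.

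Leukocyte and fibroblast markers differed by number 15 with larger medians than the fatty acid genes. All 10 leukocyte markers were lower there and passed (median log2 difference −3.73). Against the mean of 11 and 31 over both groups, 10 of 10 fibroblast markers were lower with none passing (median −1.15). In UtyGT the fibroblast sums were 2098 (11), 1817 (15) and 5747 (31), so that number 15 lay near number 11 there. The medians were −0.13 for endothelial, −0.12 for mural and 0.06 for erythroid markers. Ventricular cardiomyocyte markers had a median of 0.07, with 7 of 9 above 0, and atrial markers one of 0.37, with 7 of 8 above 0. Their part in the differences of the 33 genes between the numbers was not tested.

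Among 8 targets of PPARs and of fasting, of which 6 passed the filter, 4 passed the F test of the numbers, against 4.79% of all genes tested. The list was chosen with earlier results of these data known, so this count is not independent evidence. Pdk4, the kinase that shuts off pyruvate oxidation when fat is used, had 1371, 7063 and 1488 normalised counts in WT 11, 15 and 31 and 1406, 3686 and 2365 in UtyGT 11, 15 and 31 (adjusted p = 0.0145 by limma). Angptl4, a secreted inhibitor of Lpl, had 100.3, 404 and 135 in WT and 189, 397 and 169 in UtyGT in the same order, higher in number 15 by 1.47 on the log2 scale. Ucp3, a mitochondrial carrier of muscle, had 653, 1925 and 1328 in WT and 1005, 2206 and 1105 in UtyGT, higher by 1.06, and both passed. These 3 genes were thus higher in number 15 in both groups. The direction was that of 32 of the 33 fatty acid genes averaged over both groups, and the differences were larger. A link between these genes and the 33 was not tested. Ucp2, a related carrier that leukocytes also express, was lower in number 15 of both groups, with 1337, 252 and 1016 in WT and 516, 271 and 1197 in UtyGT (log2 difference −1.87). None of the 6 passed in UtyGT against WT, where Angptl4 had a log2 fold change of 0.40 (SE 0.56).

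Of 32 other genes of fatty acid handling, 30 passed the filter and 0 passed in UtyGT against WT, with a median of 0.02. Acot9, a mitochondrial thioesterase, had 127 ± 20.7 normalised counts in WT and 89.7 ± 11.3 in UtyGT (SD, n = 3; log2 fold change −0.49, SE 0.19, unadjusted p = 0.0356), and its groups did not overlap. Acad8, an acyl-CoA dehydrogenase of valine breakdown, was at −0.17 (SE 0.10), also without overlap, and these 2 of 30 stand beside the 2.32% of all genes wholly lower. By number, Acsl5, another acyl-CoA synthetase, was the only gene of the list that passed: it had 93.8, 24.9 and 73.5 in WT 11, 15 and 31 and 56.8, 23.5 and 95.1 in UtyGT, lowest in number 15 of both groups (adjusted p = 0.0407 by limma).

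Of 23 further genes of triglyceride and the lipid droplet, 21 passed the filter and 0 passed in either test. Agpat2, which makes phosphatidic acid on the way to triglyceride, had 366, 434 and 422 normalised counts in WT 11, 15 and 31 and 516, 536 and 506 in UtyGT 11, 15 and 31. Its groups were apart, with a log2 fold change of 0.35 (SE 0.10, unadjusted p = 0.00931, adjusted p = 1.00). Gpat3, the acyltransferase of the step before, had 630.2, 647 and 617 in WT 11, 15 and 31 and 716, 722 and 670.2 in UtyGT 11, 15 and 31, again without overlap, at 0.15 (SE 0.08, unadjusted p = 0.0860). Lpin1, the phosphatidate phosphatase of the step after Agpat2, went the other way, with 3416, 4454 and 3632 in WT 11, 15 and 31 and 3402, 3176 and 3327 in UtyGT 11, 15 and 31, also without overlap, at −0.21 (SE 0.11, unadjusted p = 0.0993). Of the 21 genes, 2 thus lay wholly higher and 1 wholly lower, beside the 3.10% and 2.32% of all genes given above. Over the 21 genes, 14 were above 0 with a median of 0.03.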

How the data were processed

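Per the authors, reads were base-called in CASAVA 1.4, mapped by STAR 2.5.1b onto GRCm38, assigned to genes by featureCounts 1.6.0 and scaled in DESeq2 1.22.2. The deposited values are a signal, the reads of a gene over the size factor of its library, with no division by length. The deposited fold changes on the log2 scale, their standard errors, the Wald statistic (a score) and the p-value columns hold the authors' own comparison and were not used. Of a second deposited table with 4 of the libraries, normalised on its own, the values served as an alternative. It holds WT 11, WT 31, UtyGT 11 and UtyGT 31, and lacks both number 15 libraries.

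In each library 100% of values were whole multiples of 1 read (tolerance 0.0001 reads). The depth was 22425670, 23252887 and 18204752 gene reads in WT 11, 15 and 31 and 19900137, 22876369 and 20715907 in UtyGT. Rows with no gene name (67) held about 0.01% of reads. Counts of libraries of 1 group differed beyond sampling noise (chi-square per degree of freedom 17.0 to 53.7).

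UtyGT against WT was tested in R 4.3.3 with limma-trend 3.58.1, using log2(normalised count + 1) of the 16202 genes whose mean was at least 10, two-sided, calling genes at a Benjamini-Hochberg adjusted p of 0.05; fold changes of low genes are understated on this scale. Numbers were tested with a limma F test with the group as covariate. edgeR 4.0.16 and DESeq2 1.42.0 were run on the recovered reads as alternatives, beside other pseudocounts, filters and scalings and each library left out. The main test was checked on simulated data. The numbers come from the labels. Deviations from the group means correlated across genes by 0.25, 0.80 and 0.41 for numbers 11, 15 and 31, so the number was also fitted as a blocking factor. For WT 11 with UtyGT 31 the correlation was 0.73, and for WT 31 with UtyGT 11 it was 0.41. For numbers 11 and 31 the pairs are thus a match by label only.

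Exons and coordinates are from GENCODE M21 (GRCm38); the study counted on an Ensembl annotation. The members and the gene lists were chosen with earlier results of these data known. Named with a value in every library were the 5 members with the smallest p in each test and the member of highest count in each step, while of the other lists any gene passing and the 2 with the smallest p were named, some by group values only; Cpt1b, Dgat1 and Lpin1 were added after their values were seen. A gene that the rule names is not reported here. Values are means ± SD unless named.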

Additional observations from a re-analysis of the deposited data

Results flagged for a closer look

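For 5 of the 33 genes the number 15 library stood on one side of both other libraries in WT and on the other side in UtyGT. The difference of number 15 from the mean of 11 and 31 was larger in UtyGT than in WT by 0.78 on the log2 scale for Cpt1b (WT −0.38, UtyGT 0.39), by 0.68 for Dgat1 (WT −0.35, UtyGT 0.34) and by 0.55 for Slc27a1 (WT −0.16, UtyGT 0.39). For Etfa it was smaller in UtyGT, by a difference of −0.35 (WT 0.25, UtyGT −0.09), and for Acads by −0.28 (WT 0.20, UtyGT −0.08). With 1 library of each number in a group, none of these 5 differences was tested. Samples were in groups of 3, too few for a search for single outlying libraries.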

How the results depend on the processing

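No alternative carried any of the 33 genes past the threshold in either test, and 9 genes kept the sign of their log2 fold change in all 18 alternatives. With the replicate block, 2 genes of all tested passed in UtyGT against WT, and 4 with the replicate block in DESeq2, against 1 with limma and no block and 2 with DESeq2 alone; leaving out 1 library at a time gave 1 to 2, with 2 without UtyGT 31. The block changed no call among the 33 genes. The count of genes passing by number fell to 478 with a filter at a mean of 50 and lay between 369 (without WT 15) and 1244 (without UtyGT 11) with 1 library left out, with 462 without UtyGT 15. The number of the 33 genes above 0 lay between 16 (without WT 11) and 32, and of genes without overlap between 1 and 17 (17 without WT 15, 4 without WT 31, 2 without UtyGT 11 or UtyGT 31). At an unadjusted p below 0.05 stood 7 of the 33 without WT 15 (3.80% of all genes), 3 in the table of 4 libraries (3.07%) and 0 with the replicate block in DESeq2 (1.41%), against 1 and 1.20% without these changes. The median of the 33 ran from −0.00 (without WT 11) to 0.16 (without WT 15).

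Signs turned in 57 of 594 values. The table of 4 libraries holds only numbers 11 and 31, so its values differ from the main ones by the loss of number 15 as well as by scaling. In the table of 4 libraries the log2 fold change was −0.13 for Cpt1b, −0.014 for Acadvl, 0.066 for Hadhb, 0.033 for Decr1, 0.016 for Etfb, −0.018 for Slc27a1, 0.090 for Acot13, −0.11 for Dgat1 and 0.0045 for Plin2. Quantile scaling gave −0.0032 for Etfa and −0.022 for Etfdh. Etfdh was −0.017 with edgeR, −0.015 with DESeq2, −0.0024 with the replicate block in edgeR and −0.0024 with the replicate block in DESeq2. With 1 library left out at a time, the values that changed sign ranged as follows: Acaa2 −0.012 to 0.32, Acadl −0.014 to 0.22, Acadm −0.00091 to 0.15, Acadvl −0.028 to 0.19, Acot13 −0.094 to 0.067, Acsl1 −0.089 to 0.13, Cpt1b −0.0044 to 0.31, Cpt2 −0.0077 to 0.18, Decr1 −0.14 to 0.10, Dgat1 −0.0076 to 0.27, Eci1 −0.060 to 0.21, Eci2 −0.076 to 0.15, Etfa −0.030 to 0.11, Etfb −0.12 to 0.051, Etfdh −0.10 to 0.14, Fabp3 −0.035 to 0.25, Hadh −0.033 to 0.23, Hadha −0.054 to 0.15, Hadhb −0.13 to 0.12, Lipe −0.070 to 0.24, Lpl −0.061 to 0.37, Plin2 −0.15 to 0.0094, Slc25a20 −0.18 to 0.20. The cause was not tested. With 3 libraries a group, small changes could not be detected. The intervals are per gene and not adjusted for the number of genes tested, so they do not mark what the adjusted test could detect. Dgat2, whose interval lay wholly above 0, did not pass it.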

Other observations

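Peroxisomes shorten very long chains by a related cycle, and 15 of 16 genes of that list passed the filter. None passed in either test, and the median log2 fold change of UtyGT over WT was 0.02, with a range from −0.25 to 0.18. The smallest p fell to Abcd3, a peroxisomal membrane transporter, at 0.12 (SE 0.13, unadjusted p = 0.352) and Acot8, a peroxisomal thioesterase, at 0.18 (SE 0.18, unadjusted p = 0.362). All 17 transcriptional regulators on the list, such as Ppara and Esrra, passed the filter and none passed in either test, with a median of 0.04 and a range from −0.06 to 0.19. The 2 with the smallest p were Esrrb, an oestrogen-related receptor, at 0.14 (SE 0.10, unadjusted p = 0.190), and Rxrb, a retinoid X receptor, at 0.12 (SE 0.11, unadjusted p = 0.292). By number, the median difference of number 15 from 11 and 31 was 0.10 for the peroxisomal genes and 0.04 for the regulators, below the 0.22 of the 33 genes; these medians were not tested against each other.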
